A study of Arabidopsis thaliana with 24 samples.

Results

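The comparison described here is the first 6 h of light and warmth in wild-type Arabidopsis thaliana seed that had completed its cold treatment. It sets the 3 arrays of wild type (WT, accession Col-0) collected 6 h into the light (6 h SL) against the 3 arrays of WT seed at the end of stratification (48 h S), 6 of the 24 arrays in the series, over all 22746 non-control probe sets of the 22810 on the array. The whole series crossed WT and the mutant Attim17-1, in the Col-0 background, with 4 stages: dry seed (0 h), 48 h S, 6 h SL and 24 h SL, each on 3 Affymetrix arrays of seed RNA. The 6 h SL seed had been stratified for 48 h and then kept for 6 h in continuous light of 100 µE per square metre and second at 22 °C, and the 48 h S seed had been stratified for 48 h at 4 °C in darkness. Both came from 80 mg of surface-sterilised seed plated on MS medium, a standard plant culture medium. Light, the rise in temperature and the further hours since imbibition came together between these stages, so their parts cannot be told apart.

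The labels disagree on the ripening of the seed, 15 days in the design text and 14 days in the protocol. The description attached to the 6 h SL arrays of WT speaks of stratification, while their titles and source names speak of light. Nothing in the labels says that the arrays of a stage stand for independent batches of seed, so each p-value reflects the scatter among the arrays at hand, and that scatter may be purely technical.

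Seed germination begins when a dry seed takes up water. The embryo then resumes respiration and protein synthesis, breaks down transcripts and proteins left from seed maturation, and loosens its cell walls before the root emerges. Stratification, a period of moist cold, releases residual dormancy, and light perceived by phytochrome and warmth then promote gibberellin action and growth. Dehydrins and other late embryogenesis abundant (LEA) proteins accumulate as seed dries, and the plastids of the embryo turn into chloroplasts after germination.

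The 6 arrays were alike in overall signal. Median intensities were 31.96 to 32.84 at 6 h SL and 28.2 to 29.86 at 48 h S, and 43.9% to 44.2% and 43.2% to 43.3% of probe sets lay above an intensity of 64. Between arrays of 1 stage the root mean square difference on the log2 scale was 0.138 to 0.149 at 6 h SL and 0.108 to 0.137 at 48 h S, and across the stages it was 0.581 to 0.612. Of the control transcripts probed at both ends, ubiquitin had a 3' minus 5' signal of 1.28 ± 0.078 log2 units at 6 h SL and 1.45 ± 0.027 at 48 h S (SD, n = 3 each) with no overlap, while GAPDH and actin overlapped between the stages. The means of these 2 were also lower at 6 h SL, 2.834 against 2.965 at 48 h S for GAPDH and 5.685 against 5.736 for actin. The part of RNA integrity in the results was not tested. The 5 pollen markers and the 2 seed coat markers measured were all uncalled, and none reached a mean of 64 at either stage. Their intensities, summed on the linear scale, were 24.59 to 24.97 at 6 h SL and 24.91 to 25.44 at 48 h S for pollen. For seed coat the sums were 10.8 to 12.23 at 6 h SL and 11.16 to 12.69 at 48 h S. No gene of the endosperm, embryo axis and seedling lists was measured by a probe set with 1 named gene, so the label seed was not checked further against those tissues.

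By 6 h SL a large share of the measured transcripts had moved, in nearly equal numbers up and down, and which number was larger depended on the scaling. With limma on log2(intensity + 16) and a Benjamini-Hochberg adjusted p under 0.05, 4402 of 22746 probe sets rose (19.4%) and 4175 fell (18.4%), 37.7% in all. A difference of at least 1 log2 unit was reached by 1076 probe sets that rose (4.73%) and 816 that fell (3.59%), and of at least 3 log2 units by 45 that rose and 41 that fell. All 3 arrays at 6 h SL lay above all 3 at 48 h S for 5337 probe sets (23.5%) and below them for 6166 (27.1%). The median over all probe sets was -0.004 log2 units. Calls were rare among weak probe sets: below a mean intensity of 16, 2.44% rose and 2.25% fell, against 32.7% and 36.3% between 256 and 1024. Above 4096 the share that rose was 43.5% and the share that fell was 29.6%. The values as deposited gave more rises than falls, while cyclic loess gave 4304 and 4387 and quantile normalisation 4184 and 4432. The plot of levels before and after shows the called probe sets on both sides of those that were not called.

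**Figure D1:**
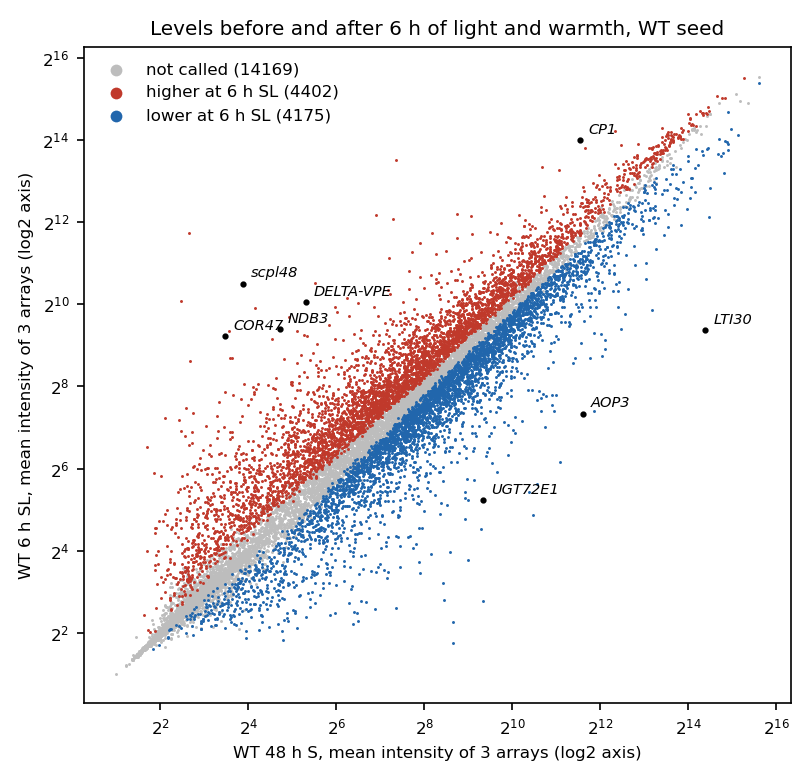
Mean intensity of each of the 22746 probe sets at 6 h SL (vertical, log2 axis) against 48 h S (horizontal, log2 axis) in WT seed, 3 arrays per stage. Red points were called higher at 6 h SL (4402), blue points lower (4175) and grey points were not called. Some named genes are marked in black.

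The transcripts that rose most included several that belong to protein breakdown. scpl48 (AT3G45010), a serine carboxypeptidase-like protein, had 1303, 1513 and 1532 at 6 h SL, against 13.2, 17.02 and 13.66 at 48 h S. Its difference was 5.58 ± 0.119 log2 units (SE, adjusted p = 4.11e-16 by limma), and the stages did not overlap. DELTA-VPE (AT3G20210), a vacuolar processing enzyme, a cysteine protease that matures vacuolar proteins, had 940.4, 1121 and 1101 at 6 h SL, against 28.22, 57.56 and 32.58 at 48 h S, a rise of 4.30 ± 0.197 (adjusted p = 6.74e-12). All 3 arrays at 6 h SL lay far above all 3 at 48 h S, and the highest array at 48 h S was replicate 2. The subtilisin-like protease SBT1.3 (AT5G51750) had 574, 610.4 and 651 at 6 h SL, against 46.82, 30.93 and 37.59 at 48 h S, and rose by 3.54 ± 0.113 (adjusted p = 7.16e-14). CP1 (AT4G36880), a papain-type cysteine proteinase, was already abundant, with 15880, 17080 and 16190 at 6 h SL, against 2377, 3418 and 3083 at 48 h S. Its rise was 2.48 ± 0.139 (adjusted p = 9.93e-11).

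Other members of these protease families set the leading genes in context. Of 29 serine carboxypeptidase-like genes measured, 10 rose and the remaining 19 were not called (limma at an adjusted p under 0.05). Of all probe sets with 1 gene, from which such groups were drawn, 17.3% rose and 16.8% fell. The family's median was 0.00, as was that of all probe sets, and 11 of the 29 exceeded a mean of 64 at either stage. After scpl48 the largest rises were those of scpl25 (2.90), scpl20 (2.67), scpl26 (2.25) and scpl44 (2.24 log2 units). scpl20 (AT4G12910) had 9542, 10580 and 11030 at 6 h SL, against 1487, 1637 and 1732 at 48 h S, so this transcript moved within the top range of the array. Among 4 vacuolar processing enzymes DELTA-VPE rose and GAMMA-VPE, known from vegetative tissue, fell by 0.91 log2 units (adjusted p = 7.73e-07). Of 7 subtilases SBT1.3 rose and 2 fell.

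Mitochondrial and redox enzymes were also among the steepest rises. NDB3 (AT4G21490), an external NAD(P)H dehydrogenase of the inner mitochondrial membrane that passes electrons to ubiquinone without pumping protons, had 662.3, 687.9 and 669.4 at 6 h SL, against 26.12, 25.65 and 26.86 at 48 h S. It rose by 4.03 ± 0.138 log2 units (adjusted p = 1.73e-13), and arrays within a stage hardly differed. Its relative NDB2 went the other way, 107 ± 8.21 at 6 h SL and 191 ± 14.5 at 48 h S (SD, n = 3 each), a fall of 0.75 log2 units (adjusted p = 2.92e-07). ALDH11A3 (AT2G24270), a non-phosphorylating glyceraldehyde-3-phosphate dehydrogenase that yields NADPH in the cytosol, had 362.3, 443.8 and 432 at 6 h SL, against 9.88, 15.06 and 12.06 at 48 h S. Its rise was 3.92 ± 0.121 (adjusted p = 5.13e-14). Of 8 aldehyde dehydrogenases measured 6 rose (75%) and 2 fell (25%), beside 17.3% and 16.8% of all probe sets with 1 gene. All 8 exceeded a mean of 64 at either stage, and calls were more frequent at such levels than among weak probe sets. ALDH22A1, the weakest rise, lost its call under 6 alternatives. The falls were those of ALDH2C4, which makes ferulic and sinapic acids, at -1.08 and ALDH7B4, a stress-responsive member, at -0.75 log2 units.

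Of 4 nuclear genes of succinate dehydrogenase, a complex of the respiratory chain, 3 rose, and genes encoded in the mitochondrion mostly did not. SDH2-2, an iron-sulphur subunit, had 926 ± 80.1 at 6 h SL and 447 ± 62.4 at 48 h S and rose by 1.03 log2 units (adjusted p = 2.16e-07). SDH2-1 rose by 0.69 and SDH1-1 by 0.37, and the remaining member of the 4 was at -0.01 and not called. CYTC-1 and CYTC-2, genes of mitochondrial cytochrome c, rose by 0.25 and 0.35 log2 units, and CYTC-2 lost its call when the other groups were left out of the fit. Of 14 genes of the mitochondrial genome 1 rose and 6 fell, with a median of -0.09. These shares were 7.14% and 42.9%, beside 17.3% and 16.8% of all probe sets with 1 gene. Of the 14, 6 exceeded a mean of 64 at either stage, as did 3 of the 4 succinate dehydrogenase genes, and weak probe sets were rarely called. cox1, a subunit of cytochrome c oxidase, had 185.7, 243.3 and 273.9 at 6 h SL, against 504.8, 470.8 and 528.9 at 48 h S, a fall of 1.06 ± 0.124 (adjusted p = 1.26e-06). The cytochrome c maturation gene ccb382 was the 1 that rose, by 0.79 log2 units.

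Genes of cell wall loosening and of the cytoskeleton rose in part. TUA6 (AT4G14960), an alpha-tubulin, had 3504, 3204 and 3250 at 6 h SL, against 528.4, 579.5 and 519.3 at 48 h S, a rise of 2.58 ± 0.0715 log2 units (adjusted p = 1.26e-14). Of 7 tubulin genes 5 rose (71.4%) and 2 fell (28.6%), beside 17.3% and 16.8% of all probe sets with 1 gene. Their median was 1.80 log2 units beside -0.004 over all probe sets, many of them weak. Of the 7, 6 exceeded a mean of 64 at either stage. The beta-tubulins TUB6 (2.12), TUB5 (2.02) and TUB7 (1.80) rose, and the alpha-tubulin TUA1, known from pollen, fell by 0.86. TUB1 rose by only 0.29 and lost its call under 4 of the alternatives. Tubulin genes are close in sequence, and signal shared between their probe sets was not tested.

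Expansins, proteins that loosen the wall during cell growth, had 5 of 19 members higher and 2 lower. These shares were 26.3% and 10.5%, beside 17.3% and 16.8% of all probe sets with 1 gene. EXPA9 had 3323, 3703 and 3378 at 6 h SL, against 669.2, 797.2 and 675.5 at 48 h S, a rise of 2.26 ± 0.0869 log2 units (adjusted p = 7.36e-13). EXPA15 rose by 2.11 and EXPA20 by 1.97, and EXPB1, of the beta-expansin class, fell by 1.18 (adjusted p = 1.28e-10). Of the 19, 7 exceeded a mean of 64 at either stage. CSLC04 (AT3G28180), the synthase of the xyloglucan backbone, had 239.7, 338.3 and 339.2 at 6 h SL, against 34.8, 39.03 and 33.09 at 48 h S and rose by 2.62 ± 0.152 (adjusted p = 1.44e-10), while its relative CSLC5 fell by 0.71. Of 10 xyloglucan endotransglucosylases 3 rose, XTH16 most at 0.98, and 7 were not called. The endoglucanase GH9C2 rose by 2.60 log2 units. SKU5, a GPI-anchored protein of directional growth, rose by 2.97, and WLIM1, which bundles actin filaments, rose by 2.57.

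**Figure D2:**
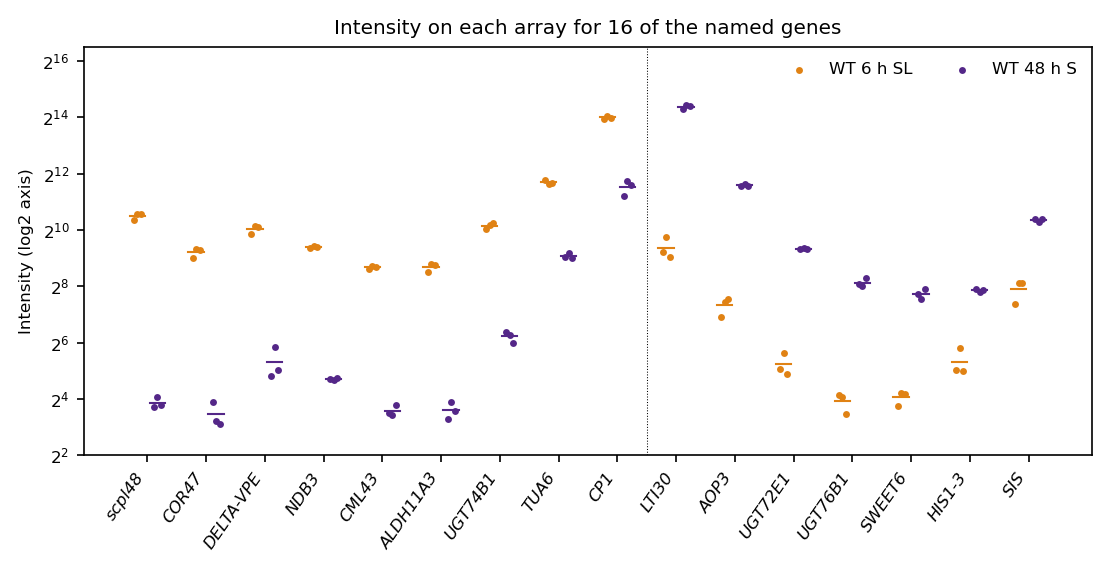
Intensity (log2 axis) on each of the 3 arrays at 6 h SL (orange, left) and 48 h S (purple, right) for 16 named genes, with bars at the means. Left of the dotted line are genes that rose and right of it genes that fell, and in all 16 the arrays of the stages do not overlap.

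The transcripts that fell most were led by a dehydrin. LTI30 (AT3G50970), a dehydrin of cold and drying, had 596.1, 853.5 and 524.6 at 6 h SL, against 20280, 22060 and 21880 at 48 h S. It fell by 5.02 ± 0.13 log2 units (SE, adjusted p = 5.52e-15), and no array of one stage came near those of the other. COR47 (AT1G20440), another dehydrin of the cold response, moved in the opposite direction, with 515.8, 650.3 and 621.1 at 6 h SL, against 14.81, 9.39 and 8.76 at 48 h S. Its rise was 4.50 ± 0.235 (adjusted p = 3.83e-11), with no overlap of the stages. COR47 was thus lowest at the end of 48 h in the cold, below its 121 ± 10.2 in dry seed.

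Among the 5 cold response genes measured 1 rose (20%) and 3 fell (60%), and 3 of the 5 exceeded a mean of 64 at either stage. Of all probe sets with 1 gene 17.3% rose and 16.8% fell. COR27, a cold-regulated gene also tied to the clock, had 57.17, 89.04 and 68.67 at 6 h SL, against 227.3, 252.4 and 169.9 at 48 h S, a fall of 1.41 ± 0.125 log2 units (adjusted p = 3.95e-08). COR15B fell by 0.18, at 6.31 ± 0.0551 at 6 h SL and 9.24 ± 2.01 at 48 h S, and lost its call when the other groups were left out of the fit, and COR15A was at -0.01 and not called. Of 7 genes of LEA proteins and dehydrins 4 fell (57.1%) and 2 rose (28.6%), with a median of -0.38. LTI30 and COR47 were not among these 7, all of which exceeded a mean of 64 at either stage. The rises were those of AT2G44060 by 1.295 and AT1G54410 by 0.907 log2 units. LEA4-5 had 2926 ± 159 at 6 h SL and 5531 ± 231 at 48 h S and fell by 0.92 (adjusted p = 3.52e-07). LEA18 (14090 ± 1306 at 6 h SL and 18380 ± 912 at 48 h S) and AtLEA4-1 fell less, with differences of -0.39 and -0.38 log2 units. HIS1-3 (AT2G18050), a linker histone of drought and abscisic acid, had 33.08, 56.07 and 31.62 at 6 h SL, against 238.5, 223.5 and 235.4 at 48 h S, a fall of 2.17 ± 0.145 (adjusted p = 9.56e-10).

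A dioxygenase and several glycosyltransferases were among the large falls, and relatives of each rose. AOP3 (AT4G03050), a dioxygenase that modifies glucosinolate side chains, had 121.9, 174.3 and 188.4 at 6 h SL, against 3043, 3205 and 3028 at 48 h S, a fall of 4.15 ± 0.135 log2 units (adjusted p = 9.11e-14). The related AOP1 rose by 1.33, 203 ± 8.55 at 6 h SL and 71.8 ± 10.5 at 48 h S. Of 45 UDP-glycosyltransferases, enzymes that attach sugars to hormones and small molecules, 7 rose and 13 fell. These shares were 15.6% and 28.9%, beside 17.3% and 16.8% of all probe sets with 1 gene. UGT72E1 (AT3G50740), a glucosyltransferase of monolignol aldehydes, had 33.51, 50.13 and 29.92 at 6 h SL, against 635.8, 657.9 and 635.6 at 48 h S and fell by 3.63 ± 0.124 (adjusted p = 1.75e-13). Also of the 45, UGT71C2 fell by 2.60 and UGT71C5, which conjugates abscisic acid, by 1.80 log2 units. UGT76B1, which conjugates isoleucic acid and salicylic acid, was not in the list of 45 and fell by 3.26 log2 units. UGT74B1 (AT1G24100), a glucosyltransferase of glucosinolate synthesis, was the largest rise among the 45. It had 1048, 1166 and 1212 at 6 h SL, against 84.21, 78.09 and 64.33 at 48 h S, or 3.67 ± 0.111 (adjusted p = 3.63e-14).

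Further named genes that fell belong to transport, hormone response and turnover. Of 14 SWEET sugar transporters 2 fell (14.3%, beside 16.8% of all probe sets with 1 gene) and 12 were not called. Those that fell were SWEET6 by 2.80 and SWEET1 by 1.39 log2 units, the only members over 64 at either stage. GID1A, a gibberellin receptor, had 233.3, 242 and 233.6 at 6 h SL, against 540.5, 546.8 and 554.2 at 48 h S, a fall of 1.16 ± 0.0702 (adjusted p = 2.72e-10), and the other 3 gibberellin genes measured were not called. SKP2A, an F-box protein of cell cycle protein turnover, was at -1.88, BPC1, which binds GAGA repeats, at -1.81, ALN, allantoinase of purine breakdown, at -1.83, and MT1C, a metallothionein, at -1.51 log2 units, all called lower. Of 12 ubiquitin-conjugating enzymes 5 fell and 7 were not called, and UBC30 was lowest at -0.92 log2 units.

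Regulators moved in both directions, as did all probe sets with 1 gene, of which 17.3% rose and 16.8% fell. The lists were filled by gene symbol, synonym or locus code, so they can lack members of a family. Of 7 basic helix-loop-helix factors found in this way 4 rose and 3 were not called. The rises were led by bHLH115, a factor of iron homeostasis, with 338.8, 321.2 and 324.7 at 6 h SL, against 31.54, 42.8 and 41.7 at 48 h S (2.66 ± 0.205 log2 units, adjusted p = 6.77e-09). Of 22 bZIP factors 2 rose (9.09%) and 4 fell (18.2%). BZIP60, a factor of the unfolded protein response, fell by 0.96 and BZIP53, an activator of seed maturation genes, by 0.82, while EEL, which acts on maturation promoters, rose by 0.93. Of 7 WRKY factors 3 fell and 4 were not called. Lists with 1 or 2 measured genes held EIN3, the ethylene response factor, which fell by 1.10 (1510 ± 88.7 at 6 h SL and 3253 ± 103 at 48 h S), and SPT, a factor of cold-regulated dormancy, which rose by 0.99. In them GI, a clock protein, rose by 0.94 and HYH, a light signalling factor, fell by 0.58 log2 units. RTE1, listed with EIN3 under ethylene, was called higher, by 1.016 log2 units. CCL, listed with GI, was at -0.064 and AT1G72390, listed with HYH, at -0.28, and neither was called. EIN3, SPT, GI, HYH and the genes listed with them were named after their values were seen.

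**Figure D3:**
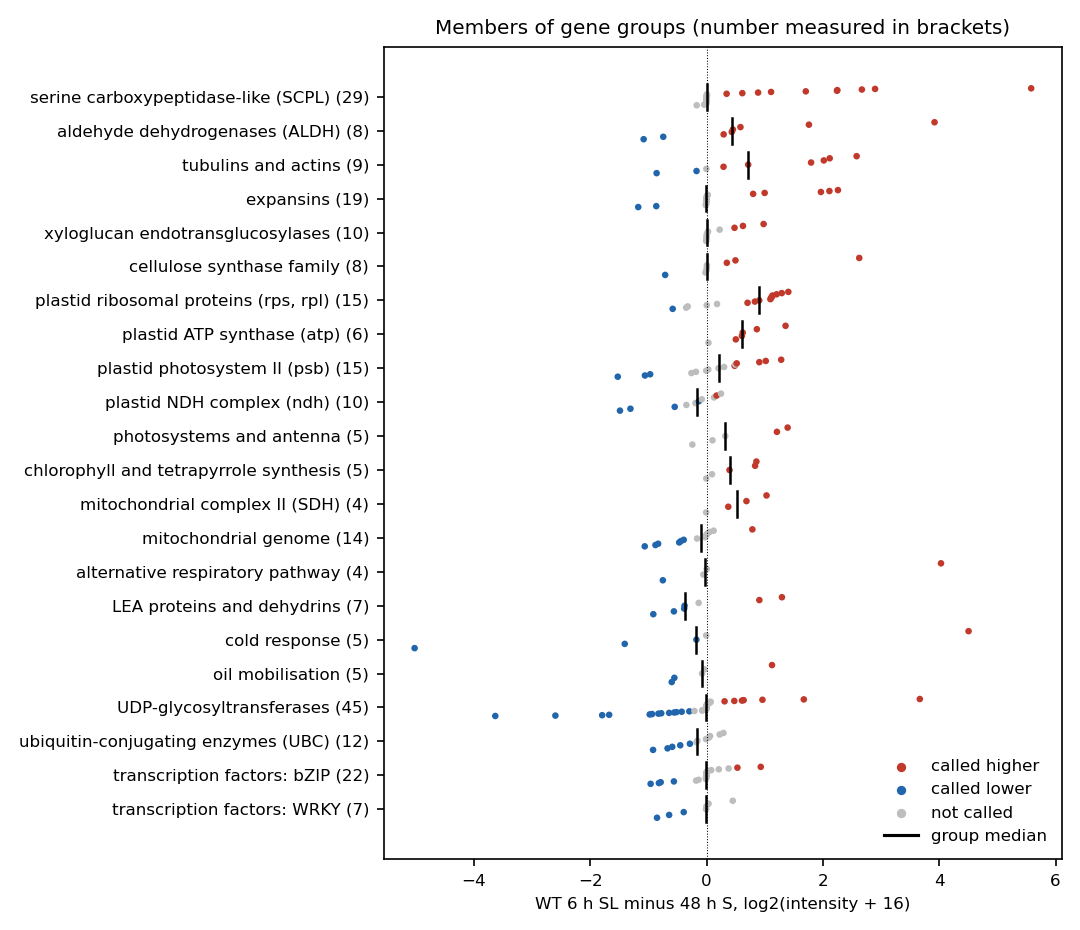
Difference between 6 h SL and 48 h S in WT (log2 scale) for every measured member of 22 gene groups, with the number of members in brackets. Red points were called higher, blue points lower and grey points were not called, and black bars are group medians, which are highest for plastid ribosomal proteins (0.91) and for tubulins and actins (0.72).

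Plastid-encoded transcripts included both rises and falls. Of 69 plastid genes 29 rose and 9 fell, 42% and 13%, beside 17.3% and 16.8% of all probe sets with 1 gene, with a median of 0.18 log2 units. Calls were more frequent at higher levels, and 53 of the 69 exceeded a mean of 64 at either stage. When only probe sets with a mean of at least 64 were fitted, 30 of 52 plastid genes rose and 9 fell, beside 3803 rises and 3713 falls among 10735 probe sets. Of 15 genes of plastid ribosomal proteins 10 rose and 1, rpl33, fell, and their median was 0.91. rpl22 had 14550, 15780 and 14820 at 6 h SL, against 5922, 5827 and 5279 at 48 h S, a rise of 1.41 ± 0.149 (adjusted p = 3.8e-07). Of 6 ATP synthase genes 5 rose, atpA most at 1.36, and of 4 genes of the plastid RNA polymerase 3 rose, rpoC2 at 1.08, rpoC1 at 1.05 and rpoA at 0.64. Most plastid and mitochondrial transcripts lack long poly(A) tails, and how they entered the labelled RNA was not tested.

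Within the plastid genome the direction changed over short distances. The adjacent genes psbE, psbF, psbL and psbJ, small subunits of photosystem II, all rose, by 1.02, 1.28, 0.52 and 0.91 log2 units, and psbL lost its call without WT 48 h S replicate 3. The adjacent ndhJ, ndhK and ndhC, of the NDH complex that returns electrons to plastoquinone, all fell, by 1.49, 1.31 and 0.55. Of the 10 plastid ndh genes measured 4 fell (40%), 1 rose (10%) and 5 were not called. Of all probe sets with 1 gene 16.8% fell and 17.3% rose. ndhJ had 115.7, 149.9 and 111.1 at 6 h SL, against 381.5, 400.6 and 355 at 48 h S, while the ribosomal protein gene rps4 next to it had 4329, 4276 and 4362 at 6 h SL, against 1943, 1836 and 1830 at 48 h S. psbN, a photosystem II assembly factor, and its neighbour psbT fell by 1.53 and 1.06 log2 units. Of 3 nuclear-encoded subunits of the NDH complex NdhS fell by 1.28, and NdhN at 0.07 and NdhL at -0.01 were not called.

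Some nuclear genes of photosynthesis rose. Of all probe sets with 1 gene 17.3% rose and 16.8% fell. LHCB4.1, a minor antenna protein of photosystem II, had 265.7, 272.9 and 281.7 at 6 h SL, against 120.7, 93.26 and 115.4 at 48 h S, a rise of 1.21 ± 0.0723 log2 units (adjusted p = 2.27e-10). PSBY rose by 1.39, and the other 3 photosystem and antenna genes measured were not called. Of 5 chlorophyll synthesis genes 3 rose, CHLI2 of magnesium chelatase most at 0.86, and PORB, the light-dependent protochlorophyllide reductase, was at -0.01 with a mean near 16 at both stages. Of 3 Calvin cycle genes SBPASE rose by 1.00 and RCA, the activase of Rubisco, by 0.59.

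Reserve mobilisation showed no common direction. ICL, isocitrate lyase of the glyoxylate cycle, had 19940, 20880 and 20930 at 6 h SL, against 21420, 21610 and 22160 at 48 h S, a difference of -0.08 ± 0.0844 log2 units that was not called (adjusted p = 0.651), although the arrays of the stages did not overlap. SDP1, the main oil body lipase, fell by 0.60, AIM1 of fatty acid beta-oxidation fell by 0.55, and SDP1-LIKE rose by 1.12. The most intense named probe sets lay near the top of the intensity range, and whether saturation limited their differences was not tested. AT1G67430, AT3G62870, AT3G60245 and AT4G39200, with 21390 or more on all 6 arrays, rose by 0.41, 0.35, 0.26 and 0.19 log2 units. LCR67, a defensin-like peptide gene, fell by 0.24 and lost its call under quantile normalisation.

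The dry seed and 24 h SL arrays, which took no part in the contrast, place these changes in time. Of the 1076 probe sets that rose by at least 1 log2 unit 937 (87.1%) were also called higher at 24 h SL than in dry seed, against 31.3% of all probe sets, and 97 (9.01%) were called lower. Of the 816 that fell by at least 1, 608 (74.5%) were called lower at 24 h SL than in dry seed, against 54.4% of all, and 136 (16.7%) higher. In time order the median intensity of the 1076 was 38.4 at 0 h, 83.3 at 48 h S, 280 at 6 h SL and 445 at 24 h SL. That of the 816 was 521, 385, 118 and 81.9.

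The genes that fell most did not share a history. Of the 12 largest falls 6 had a dry seed mean under 64 and 6 a mean of at least 64. LTI30 had 32010 ± 1296 in dry seed and 50.4 ± 9.30 at 24 h SL (SD, n = 3 each), and HIS1-3, SIS (a salt-induced serine-rich protein) and SWEET6 were likewise highest in dry seed. AOP3 had 15.7 ± 1.72 in dry seed and 13.9 ± 2.64 at 24 h SL, so its level at 48 h S was the highest of the 4 stages. AT1G11210 was at 4.12 ± 0.758 in dry seed and 3.30 ± 0.0929 at 24 h SL, with 446.6, 466.3 and 293.5 at 48 h S. AT2G44800 and FMO, a flavin monooxygenase, also had their highest mean at 48 h S.

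Among the 12 largest rises 9 had a dry seed mean under 64, and 9 had a higher mean at 24 h SL than at 6 h SL. DELTA-VPE reached 10750 ± 909 and scpl48 6416 ± 589 at 24 h SL. PYK10, a beta-glucosidase of seedling ER bodies, had 155.2, 119.8 and 157.9 at 6 h SL, against 5.35, 5.31 and 5.45 at 48 h S, and 17230 ± 417 at 24 h SL. YLS5 and SGP2 had been higher in dry seed, at 549 ± 42.9 and 299 ± 13.8, than at 48 h S. In this bulk tissue fewer cells of a type and less RNA per cell cannot be told apart.

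**Figure D4:**
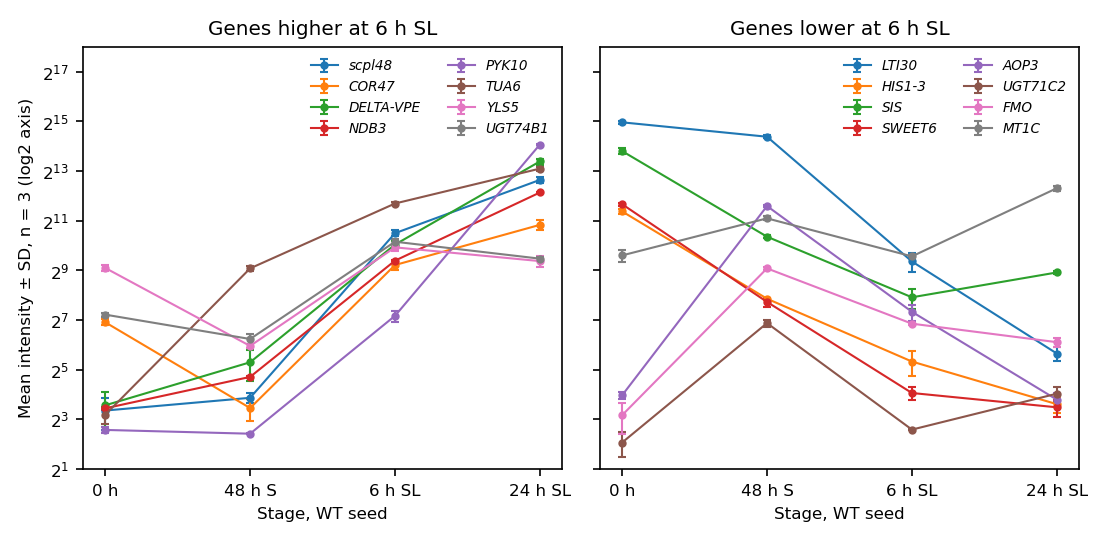
Mean intensity ± SD (n = 3, log2 axis) at the 4 stages in WT seed for 8 genes that rose (left) and 8 that fell (right) between 48 h S and 6 h SL. Among the genes that fell, LTI30, HIS1-3, SIS and SWEET6 are highest at 0 h, and AOP3, UGT71C2 and FMO are highest at 48 h S.

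The same step in the mutant, measured on 6 other arrays, tells how far the WT changes recur. Attim17-1 is a line named for TIM17, a protein of the mitochondrial import machinery. In it 4306 probe sets rose (18.9%) and 4374 fell (19.2%). Of the 1076 WT rises of at least 1 log2 unit 1071 (99.5%) were also called higher in Attim17-1, and of the 816 falls 806 (98.8%) were also called lower. Across all 22746 probe sets the steps had a Pearson r of 0.956, a description over probe sets from the same 2 stages that were fitted in a single model. LTI30 fell by 4.51 in Attim17-1 and by 5.02 in WT, and scpl48 rose by 4.99 in Attim17-1 and by 5.58 in WT.

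A test of the difference between the steps called 163 probe sets (0.717%), 107 positive (0.47%) and 56 negative (0.246%), and 15 (0.0659%) differed by at least 1 log2 unit. PYK10 rose by 1.69 in Attim17-1 and by 2.90 in WT (difference -1.21, adjusted p = 0.00718), and HIS1-3 fell by 1.05 in Attim17-1 and by 2.17 in WT (difference 1.12, adjusted p = 0.018). AT2G29300 fell by 1.10 in Attim17-1 and by 2.36 in WT (difference 1.26, adjusted p = 0.00718). AT2G34315 was at -0.18 in Attim17-1 and fell by 1.41 in WT (difference 1.23, adjusted p = 0.00329). The count depended on single arrays: it was 65 without Attim17-1 48 h S replicate 2, 77 without Attim17-1 6 h SL replicate 1, 63 and 80 without WT 48 h S replicates 1 and 2, and 64, 303 and 76 without WT 6 h SL replicates 1, 2 and 3.

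**Figure D5:**
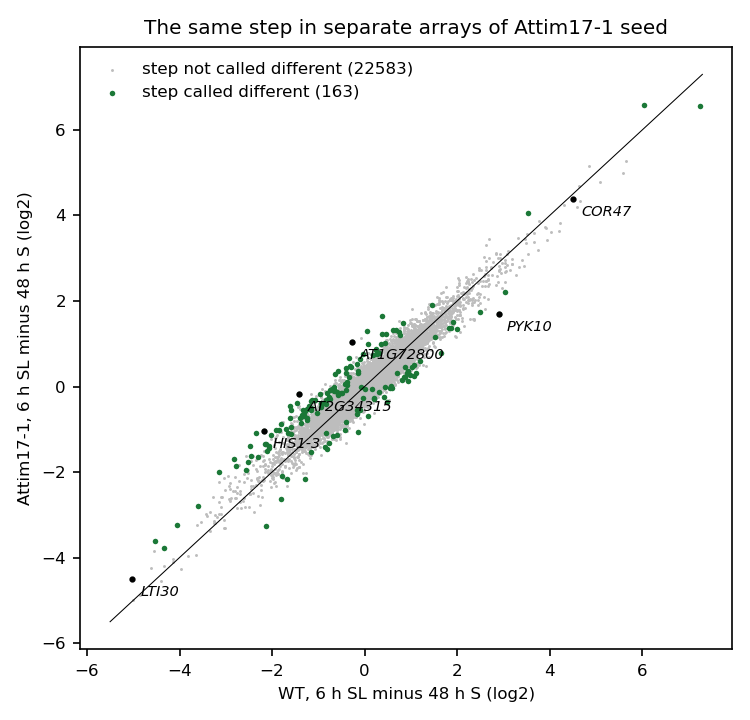
Change from 48 h S to 6 h SL in Attim17-1 (vertical) against the same change in WT (horizontal), log2 scale, for 22746 probe sets from separate arrays. Green points are the 163 whose step was called different between the genotypes, black points are named genes, and the line marks equal steps.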

How the data were processed

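The authors deposited a single table of linear intensity values with a column for each of 24 Affymetrix arrays of biotin-labelled seed RNA, made from 400 ng total RNA per the labels' protocols. MAS5, RMA and Partek are the tools listed in the submitters' processing notes. Their versions, and which of them made the deposited values, are not given in the sources used here, and no detection calls were used. The number of arrays limits precision. Values were used as deposited, as log2(value + 16), which understates changes of weak transcripts, and fitted in R 4.3.3 with limma 3.58.1 (data.table, version 1.17.8) as 8 group means over 24 arrays with 16 residual degrees of freedom, after the 64 control probe sets were left out. Adjusted p-values are limma's, by Benjamini-Hochberg over 22746 probe sets, with a threshold of 0.05. With 3 arrays a stage, exact permutation could not give a p under 0.1. The procedure was tested on simulated data.

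The platform annotation gave 13513 probe sets 1 gene, 503 several and left 8730 unlisted; 13436 of the 13513 matched the TAIR10.1 gene list, which updated symbols and ordered plastid genes. Named genes were the 12 largest rises and falls with stages apart and a mean of at least 64, the next 12 with a symbol, up to 4 called members of each list with at least 3 measured genes and 1 of the opposite direction, the 5 largest differences between genotypes and the 5 most intense probe sets. In those of these lists with up to 8 measured genes every member could be named. Outside these rules scpl44, AOP1, psbJ, psbL, 4 regulators, RTE1, CCL and AT1G72390 were named after their values were seen. A gene with several probe sets was represented in lists by the one with the highest mean. In all, 43 gene lists with a measured gene were written first and 43 were added after the annotation was read. They were filled by gene symbol, synonym or locus code. Only 1580 probe sets had a symbol other than a locus code, so the lists can lack members of a family. The comparison, the lists and the genes were chosen with earlier results of these data known. Same-numbered arrays of the stages correlated at 0.0169 to 0.0541 in their deviations from the stage means, so replicate numbers were not taken as pairs. Promoter motifs were not analysed here. Alternatives covered the offset, scaling, a filter, array weights, the prior, the arrays in the fit, a replicate block and leaving out in turn each of the 12 arrays of 6 h SL and 48 h S.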

Additional observations from a re-analysis of the deposited data

Results flagged for a closer look

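These named genes were picked out because a test of the difference between the steps passed the threshold, that is, the change from 48 h S to 6 h SL differed between Attim17-1 and WT in limma at an adjusted p under 0.05. The differences, Attim17-1 minus WT in log2 units, were positive for AT1G72800 (1.31), AT2G29300 (1.26), AT3G21380 (1.25), AT2G34315 (1.23), HIS1-3 (1.12), AT5G66430 (0.92), NET3A (0.65), LEA18 (0.50), AtLEA4-1 (0.41) and CHR34 (0.34). The difference for PYK10 was negative (-1.21). AT3G21380 rose by 1.30 in Attim17-1 and was at 0.06 and not called in WT. AtLEA4-1, LEA18, NET3A and CHR34 were called lower in WT and not called in Attim17-1, where their steps were 0.03, 0.12, -0.16 and -0.07.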

How the results depend on the processing

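Of 718 genes followed 298 were called. None of these 298 changed direction under any alternative run for them, and 255 kept their call under every such one. Leaving out an Attim17-1 array was not run for single genes. The filter on a mean of at least 64 covered only the genes that passed it. The count of rises stayed between 3803 and 5094 and that of falls between 3713 and 4876 across the settings. Rises outnumbered falls except under cyclic loess (4304 and 4387) and quantile normalisation (4184 and 4432). Counts past 1 log2 unit dropped to 594 rises and 515 falls with log2(value + 64), which by construction shrinks changes of weak transcripts. Leaving out 1 WT array of these stages gave 4034 to 4165 rises, 3806 to 3942 falls, 1062 to 1080 rises and 789 to 853 falls of at least 1 log2 unit; leaving out 1 Attim17-1 array gave 4346 to 4395 rises and 4125 to 4175 falls. The number of probe sets whose step differed between genotypes was the least stable: 269 with a mean intensity of at least 64 (fewer probe sets tested), 1711 with array weights, and 63 to 303 when 1 array of either genotype at these stages was left out; the cause was not tested. With the replicate number as a block the counts were 4354 rises, 4162 falls, 1076 and 816 past 1 log2 unit and 140 differing steps, and none changed by over 1.5 times, although the pairing check did not tie the numbers together. Signal over background limits weak probe sets: 474 of the 1076 rises (44.1%) had a mean under 64 at 48 h S and 286 of the 816 falls (35%) had one at 6 h SL.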

Other observations

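Other gene families moved in part, against 17.3% higher and 16.8% lower among all probe sets with 1 gene. Of 15 IQ-domain genes, whose proteins bind calmodulin, 4 rose and 2 fell, and of 22 TRICHOME BIREFRINGENCE-LIKE genes of wall polysaccharide acetylation 5 rose and 1 fell. Of 10 genes of vacuolar protein sorting 3 rose and 4 fell. Of 8 chromatin remodelling genes 3 fell and 5 were not called, and of 6 genes of RNA polymerase II subunits 1 rose and 3 fell. Of 40 AGAMOUS-like MADS genes 2 rose and 4 fell, AGL67 most at -1.14 log2 units, and 5 of the 40 exceeded a mean of 64 at either stage. Cpn60beta2, a chaperonin subunit of plastids, had 3673 ± 365 at 6 h SL and 1452 ± 94.0 at 48 h S (SD, n = 3 each) and rose by 1.33 log2 units (adjusted p = 1.7e-09 by limma).

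The 2 largest rises of all belonged to probe sets without a listed gene. Probe set 252607_at had a mean of 3391 at 6 h SL and 6.29 at 48 h S, a difference of 7.26 ± 0.104 log2 units (SE, adjusted p = 1.7e-18 by limma), and 250780_at had 11650 at 6 h SL and 162 at 48 h S, a difference of 6.03 ± 0.0853. In Attim17-1 these steps were 6.57 and 6.59. Both were called different from the WT steps, by -0.687 and 0.555 log2 units (adjusted p = 0.0382 and 0.0419 by limma). Among falls without a listed gene the largest were 266719_at, with 6.90 at 6 h SL and 643 at 48 h S, and 258603_at, with 72.1 at 6 h SL and 2152 at 48 h S.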
